A study of Mus musculus with 6 samples.

Results

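As a group, oxidative phosphorylation genes stood lower in the gastric antrum of BL6 mice than in that of Beige and Satin mice, although no single gene passed the test for a difference between strains. The group holds 85 of the 12393 genes that had a probe set of their own on the arrays. Members were taken by gene symbol: names that start with Nduf, Uqcr, Cox4, Cox5, Cox6, Cox7, Cox8 or Atp5, together with Sdha, Sdhb, Sdhc, Sdhd and Cyc1. By the roles of their products, 73 members are subunits of complexes I to V, 6 are isoforms of complex IV subunits known mainly from muscle, lung or testis, and 6 match the names without being subunits. The 85 genes had 157 probe sets, and 45 genes had more than 1. The probe set with the highest mean over the 6 arrays stands for its gene. A filter on dim genes kept 82 members, and left out Cox7c, Cox6b2 and Cox8b, whose means lay below 5.74 on the log2 scale. Of the 82 members tested, 33 subunits belong to complex I, 4 to complex II, 9 to complex III, 9 to complex IV and 17 to complex V. The other members tested are 4 tissue isoforms and 6 genes that encode no subunit.

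The study compared whole antrum, the lower part of the stomach, of Satin mice with that of 2 strains titled as controls, Beige and C57/BL6 (here BL6), with 2 arrays per strain. Its labels name FOXQ1, a forkhead transcription factor. As background, satin is a recessive coat mutation in Foxq1, and beige is a mutation in Lyst, a gene of lysosome-related organelles. The sources used here give neither the alleles, ages and sexes of the mice nor their genetic backgrounds, so mutation and background cannot be told apart. They also do not state that each array held RNA of 1 animal, and the p-values then describe only how far these arrays spread, part of which may be technical.

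Oxidative phosphorylation takes place in the inner membrane of mitochondria. Complexes I and II pass electrons from NADH and succinate to ubiquinone, complex III hands them on to cytochrome c, and complex IV gives them to oxygen. The proton gradient that complexes I, III and IV build drives ATP synthesis by complex V. In the stomach, the acid-secreting parietal cell is packed with mitochondria, while smooth muscle, mucous cells and endocrine cells of the wall add their own. Most subunits are encoded in the nucleus. The few that mitochondrial DNA encodes are not among the genes measured here (0 of 13 listed), so every level below is that of a nuclear transcript.

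All values are log2(signal + 32) after quantile normalisation, and differences are on that scale, on which changes of dim genes appear smaller than they are. Median signals ran from 38.2 to 74.15 over the 6 arrays before normalisation. The Gapdh signal at the 5′ end over that at the 3′ end, a ratio that drops when RNA is degraded, was 0.526 on BL6 replicate 1 and 0.988 to 1.18 on the others. For actin the same ratio was 0.440 on BL6 replicate 1 and 0.618 to 0.800 elsewhere. The arrays carried gastric transcripts throughout: the mean over 4 pit cell markers was 13.15 and 13.00 in BL6, against 13.18 and 13.18 in Beige and, in Satin, 12.07 and 12.07. The fall was not shared by all of these markers. Their median difference of Satin from both controls was 0.01, with 2 of 4 above 0 and 1 called lower. Gast, the hormone gene of antral G cells, averaged 11.94 in BL6, 12.13 in Beige and 10.63 in Satin. RNA of pancreas was present unevenly. The mean over 5 pancreatic markers was 6.76 and 12.96 on BL6 replicates 1 and 2, against 7.27 and 10.42 in Beige and, in Satin, 6.50 and 12.30.

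The mean level over the 82 members was 9.99 and 10.08 in BL6, against 10.33 and 10.27 in Beige and, in Satin, 10.40 and 10.28. Both BL6 arrays were therefore lowest and the other 4 arrays lay close together, whereas the mean over all 9395 genes tested stayed between 7.38 and 7.41. In bulk tissue a smaller share of mitochondria-rich cells cannot be told apart from less of these transcripts per cell. Relative to its own mean over the 6 arrays, the median member was at -0.27 and -0.14 in BL6, against 0.11 and 0.03 in Beige and, in Satin, 0.18 and 0.08. Replicates of a strain differed by a median of 0.10 in BL6, -0.09 in Beige and -0.14 in Satin (replicate 2 minus replicate 1), which is less than the gap of either strain to BL6.

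Taken gene by gene, 39 of the 82 members had both BL6 arrays below all 4 Beige and Satin arrays, an order that 7.67% of all genes tested had. Among the 1210 genes with a mean level of 9 or more, 10.6% had it. The opposite order, both BL6 arrays above the other 4, occurred in 2 members, Cox4i2 and Ndufb7 (the latter named after its values were seen), against 7.6% of all genes. A further, dimmer probe set of Ndufb7 went the other way, at 0.56 in Beige against BL6 and 0.49 in Satin against BL6. Complexes I to V contributed 16, 3, 4, 5 and 9 of the 39, so every complex took part. Both Satin arrays were above the 4 control arrays in 16 members (10.9% of all genes) and below them in 2 (12.7%). Taken by pairs of strains, both Beige arrays were above both BL6 arrays in 48 members (15.9% of all genes), and both Satin arrays in 51 (20.9%). Both Satin arrays were above both Beige arrays in 17 members (21.5%) and below them in 14 (23.4%). Both Beige arrays were above the other 4 in 10 members (6.81% of all genes) and below them in 0 (6.38%).

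**Figure D1:**
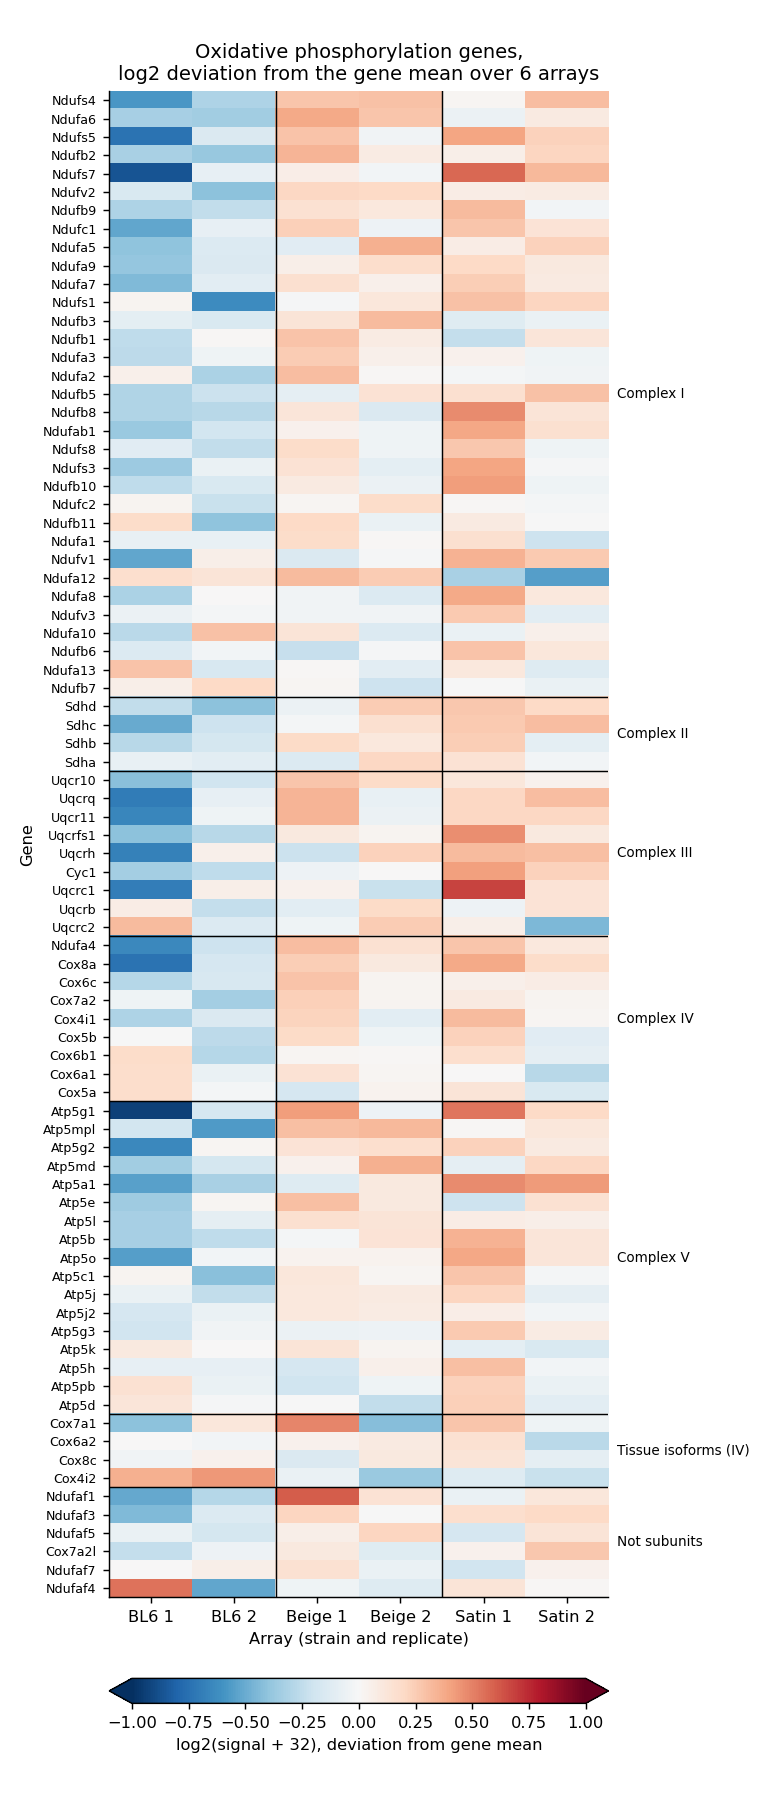
Each row is 1 of the 82 members tested, ordered by complex and then by its difference between Beige and BL6, and each column is 1 array; colour gives the log2 deviation of the gene from its mean over the 6 arrays, from -1 (blue) to 1 (red). Blue gathers in the 2 BL6 columns, where 39 members lie below all 4 other arrays, and exceptions such as Ndufa12, Cox6a1 and Cox4i2 stand out.

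Because the low BL6 values could come from 1 array, each was also set alone against the 4 Beige and Satin arrays. BL6 replicate 1, the array with the low 5′ to 3′ ratios, lay below all 4 for 51 members (24.6% of all genes). BL6 replicate 2, whose ratios of 0.988 for Gapdh and 0.729 for actin were like those of the other strains but which had the highest pancreatic marker level, lay below all 4 for 52 members (19.8% of all genes). The order was thus found with either array.

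In the fit across all genes (limma, Benjamini-Hochberg adjustment), 72 of 82 members were above 0 in Beige against BL6 and 71 of 82 in Satin against BL6, where 48.8% and 49% of all genes tested were. The median differences were 0.28 and 0.31, beside -0.01 for all genes in both comparisons. Between Satin and Beige the members were balanced, with 49 of 82 above 0 (50.3% of all genes) and a median of 0.04. Satin against the mean of both controls, which mixes these contrasts, gave 63 of 82 above 0 (49.8% of all genes) and a median of 0.14, beside -0.00 for all genes. The 4 comparisons share arrays and are not independent of each other.

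The test called 0 members in each comparison at an adjusted p under 0.05. Over all genes it called 1.44% in Satin against both controls (0.436% higher and 1% lower), 0.894% in Satin against Beige (0.224% and 0.671%), 0.745% in Satin against BL6 (0.224% and 0.522%) and 0% in Beige against BL6. At an unadjusted p under 0.05, 22 members were higher and 0 lower in Beige than in BL6, where 3% and 2.13% of all genes were. In Satin against BL6, 32 were higher and 1 lower (5.64% and 6.93% of all genes), in Satin against both controls 16 and 1 (5.11% and 7.45%), and in Satin against Beige 2 and 1 (4.19% and 6.34%). Most members are bright, and bright genes had smaller SEs. Among the 1210 genes with a mean level of 9 or more, 79 were higher and 29 lower in Beige against BL6. In Satin against BL6 these counts were 139 and 160. Without BL6 replicate 2, BL6 was represented by replicate 1 alone, the array with the low 5′ to 3′ ratios. The median member difference in Satin against BL6 was then 0.34, and without BL6 replicate 1 it was 0.28. In Satin against both controls it was 0.15 without BL6 replicate 2 and 0.17 without BL6 replicate 1.

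The value of Beige against BL6 did not rest on the array with low 5′ to 3′ ratios alone. Without BL6 replicate 1 the median member difference was 0.23 with 66 of 82 above 0, and without BL6 replicate 2 it was 0.33 with 69 of 82 above 0. With the Gapdh ratio as a covariate it was 0.23 with 66 of 82 above 0. Within a strain that ratio differed mainly in BL6, at 0.526 and 0.988. In this comparison the covariate fit is therefore close to the fit without BL6 replicate 1, and is no separate check. Satin against BL6 kept a median of 0.22 with that covariate, with 68 of 82 above 0. The order of Satin and Beige was not stable: the median was -0.01 without Satin replicate 1 and -0.03 without Beige replicate 2. In Satin against both controls the median member was 0.26 without Satin replicate 2.

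**Figure D2:**
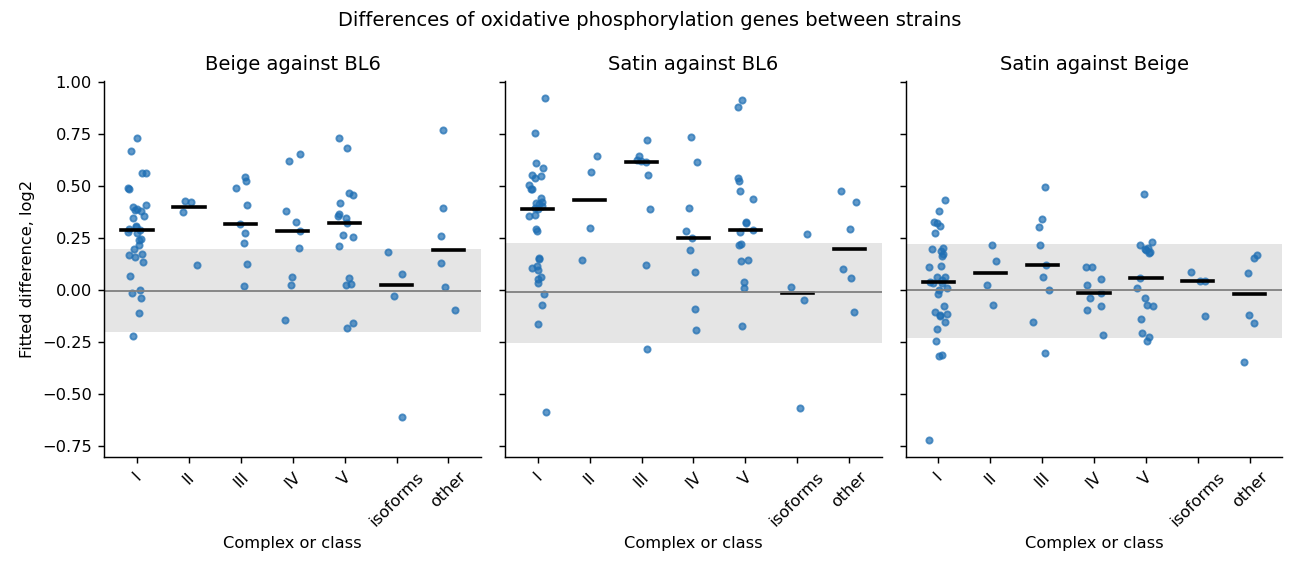
Fitted log2 differences of the 82 members (points) by complex or class in 3 comparisons, with the median of each class as a black bar; the grey band spans the middle 50% of all 9395 genes tested and the grey line is their median. The medians of complexes I to V lie above the band in both comparisons with BL6, and all lie inside it for Satin against Beige; "isoforms" are tissue isoforms of complex IV, and "other" are members that are not subunits.

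Nuclear genes of the respiratory chain are known for promoters that bind NRF1, ETS factors such as GABPA, YY1, SP1 and ERR receptors, so these motifs were looked for in the RefSeq windows of 250 bases before to 50 after each start (assembly GRCm38.p6, both strands), which 70 of the 85 members had. Each gene was counted once, also where it had several windows. The NRF1 letters, GCGCA followed by any base and GCGC, occurred in 16 of the 70 members (22.9%), beside 11.2% of 7597 genes tested and 5.19% of all 27025 genes with a window. The ETS letters CCGGAAG occurred in 18 members (25.7%, beside 19.2% of genes tested and 9.93% of all). The YY1 letters AAGATGGC occurred in 9 (12.9%, beside 5.16% and 3.19%) and the ERR letters TCAAGGTCA in 2 (2.86%, beside 0.316% and 0.466%). The SP letters GGGCGG occurred in 31 (44.3%, beside 67.1% and 38.2%). The YY1 letters lay after the start in 7 of 9 members, between bases 23 and 46 and always on the strand of the gene. Median GC content was 58.8% in members, 60.7% in genes tested and 52.7% in all windows. A match is only a stretch of letters, and a base shared by different motifs was counted for each.

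The following stretches, the 100 bases directly before the start on the strand of the gene, show 2 genes of complex II with NRF1 letters (Sdhd and Sdha), 2 further genes that hold them and had both BL6 arrays lowest (Ndufs5, chosen after its values were seen, and Atp5g2), and Atp5g1, which encodes the same mature protein as Atp5g2 and holds none of the NRF1 or ETS letters here. Capitals mark NRF1 or ETS letters on either strand.
Sdhd, chr9:50603850-50603949, minus strand: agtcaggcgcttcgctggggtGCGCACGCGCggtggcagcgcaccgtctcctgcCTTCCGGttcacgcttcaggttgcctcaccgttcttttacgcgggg
Sdha, chr13:74350241-74350340, minus strand: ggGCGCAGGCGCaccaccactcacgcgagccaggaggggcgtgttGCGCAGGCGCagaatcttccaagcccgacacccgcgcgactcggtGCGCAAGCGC
Ndufs5, chr4:123718187-123718286, minus strand: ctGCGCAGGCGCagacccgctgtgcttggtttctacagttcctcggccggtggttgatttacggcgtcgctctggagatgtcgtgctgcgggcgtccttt
Atp5g2, chr15:102671048-102671147, minus strand: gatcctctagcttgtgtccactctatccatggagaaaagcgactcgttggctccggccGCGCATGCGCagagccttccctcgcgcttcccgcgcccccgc
Atp5g1, chr11:96075632-96075731, minus strand: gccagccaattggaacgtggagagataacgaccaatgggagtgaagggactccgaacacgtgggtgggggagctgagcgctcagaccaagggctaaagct
The NRF1 letters occur 3 times in the stretch of Sdha and 1 time each in those of Sdhd, Ndufs5 and Atp5g2. Members with and without the NRF1 letters had close median differences, 0.24 and 0.29 in Beige against BL6 and 0.34 and 0.30 in Satin against BL6. In Satin against BL6 the medians with and without were 0.41 and 0.30 for the YY1 letters, 0.29 and 0.36 for the ETS letters and 0.29 and 0.39 for the SP letters. None of these differences was tested.

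Complex I, the largest of the chain, takes electrons from NADH. Of its 33 subunit genes, 29 were above 0 in Beige against BL6, with a median of 0.29, and 29 in Satin against BL6, with a median of 0.39. Ndufs4, an accessory subunit of the arm that reaches into the matrix, was at 8.75 and 9.02 in BL6, against 9.61 and 9.62 in Beige and, in Satin, 9.35 and 9.64. BL6 was apart from the other strains and Beige and Satin overlapped. The difference of Beige from BL6 was 0.73 ± 0.18 (SE; adjusted p = 0.86), and that of Satin was 0.61 ± 0.18 (adjusted p = 0.20). Further probe sets of Ndufs4, dimmer but past the filter, gave 0.14 and -0.21 in Beige against BL6. In Satin against BL6 they gave 0.14 and -0.09. Ndufa6, a further accessory subunit, was at 9.99 and 9.97 in BL6, against 10.70 and 10.60 in Beige and, in Satin, 10.26 and 10.41. Here the strains did not overlap, and Satin lay between the controls. Its difference of 0.67 ± 0.15 between Beige and BL6 had an adjusted p of 0.86.

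Ndufs7 encodes the subunit with the iron-sulphur cluster next to the ubiquinone site. Its levels were 8.72 and 9.50 in BL6, against 9.65 and 9.55 in Beige and, in Satin, 10.16 and 9.91. Satin was highest on both arrays and BL6 replicate 1 stood far below its partner. Satin exceeded both controls by 0.68 ± 0.21 (adjusted p = 0.20), a 1.60-fold difference, and BL6 alone by 0.92 ± 0.24 (adjusted p = 0.16). A further probe set of Ndufs7 gave 0.11 in Satin against both controls. Ndufb8, of the membrane arm, was at 10.81 and 10.83 in BL6, against 11.23 and 10.96 in Beige and, in Satin, 11.58 and 11.23. Satin replicate 2 lay just above Beige replicate 1, and the difference of 0.45 ± 0.15 from both controls had an adjusted p of 0.24. Ndufs5, shown above, was at 8.54 and 9.13 in BL6, against 9.57 and 9.24 in Beige and, in Satin, 9.68 and 9.51.

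Ndufa12, an accessory subunit, had the lowest difference of complex I in Satin against both controls, where 23 of 33 subunit genes were above 0 and 10 below. Its levels were 10.73 and 10.69 in BL6, against 10.88 and 10.81 in Beige and, in Satin, 10.23 and 10.01. Both Satin arrays lay below all 4 control arrays, which were close together. The difference was -0.65 ± 0.13 against both controls (a ratio of 0.635), with an adjusted p of 0.0505, and -0.72 ± 0.15 against Beige (adjusted p = 0.0773). It passed the threshold against Beige without either BL6 array (adjusted p = 0.0486 without replicate 1 and 0.0433 without replicate 2), and in neither of those cases did any other member. The call depends on the probe set. Another probe set gave -0.68 against both controls, and a further one gave 0.26. All 3, which passed the filter on dim genes, carry suffixes that the platform uses for probes that can match more than 1 transcript. With values as deposited the difference from BL6 alone was no longer negative.

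Ndufc2, a small subunit of the membrane arm, also differed between its probe sets. The one used was at 10.84 and 10.59 in BL6, against 10.84 and 10.99 in Beige and, in Satin, 10.82 and 10.80, with a difference of -0.01 ± 0.14 from both controls. The other gave -0.76, so the transcript cannot be given a single direction from these arrays. Ndufa1, an X-linked subunit of complex I, was at 11.51 and 11.51 in BL6, against 11.77 and 11.59 in Beige and, in Satin, 11.75 and 11.38, where the strains overlapped.

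**Figure D3:**
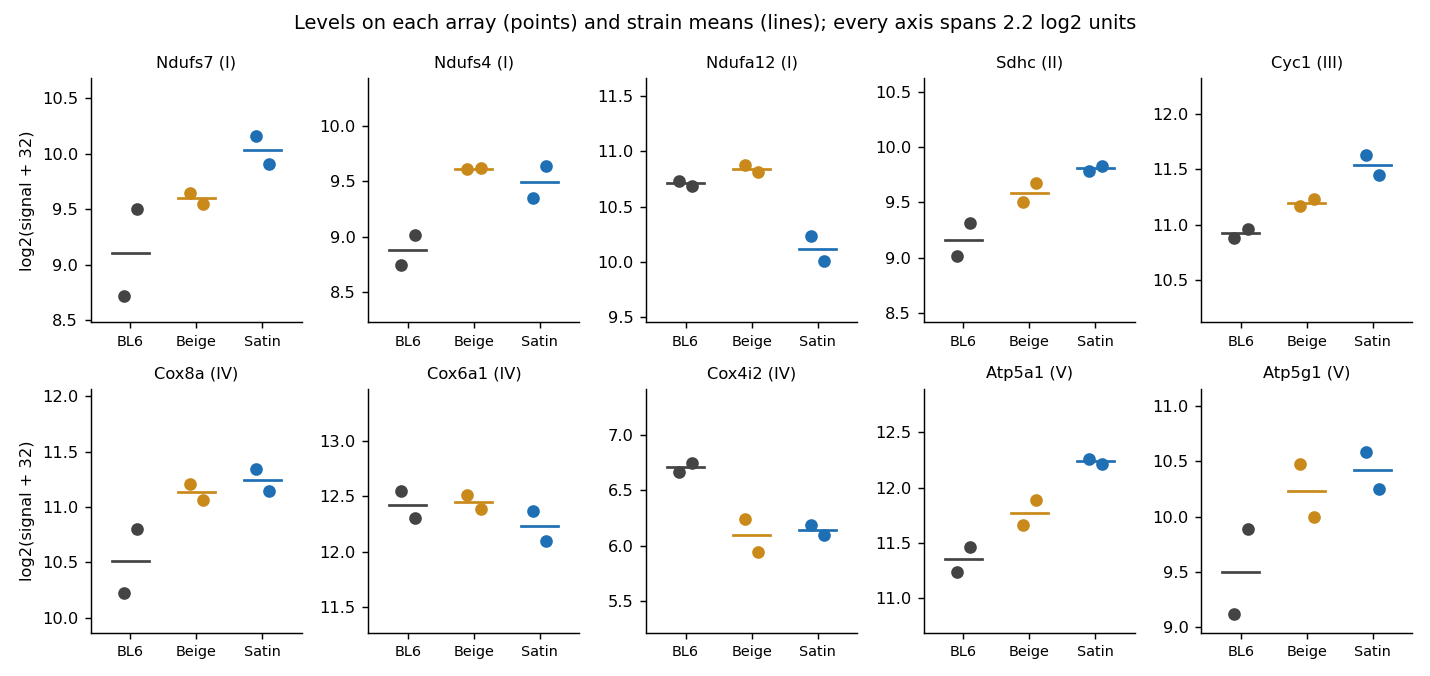
Levels of 10 members on each of the 6 arrays (points) with strain means (lines), in log2(signal + 32); every axis spans 2.2 log2 units, so slopes can be compared but levels of different genes cannot. BL6 is lowest for Ndufs7, Ndufs4, Sdhc, Cyc1, Cox8a, Atp5a1 and Atp5g1, Satin is lowest for Ndufa12, and BL6 is highest for Cox4i2.

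Complex II, succinate dehydrogenase, is encoded wholly in the nucleus and links the chain to the citric acid cycle. In the probe sets used, all 4 genes were above 0 in both comparisons with BL6, with medians of 0.40 in Beige and 0.43 in Satin. Sdha, the flavoprotein, was nearly level, at 10.06 and 10.02 in BL6, against 9.99 and 10.33 in Beige and, in Satin, 10.27 and 10.10. A second, dimmer probe set of Sdha gave -0.40 in Beige against BL6 and -0.13 in Satin against BL6. Sdhb, the iron-sulphur subunit, was at 10.54 and 10.64 in BL6, against 11.01 and 10.92 in Beige and, in Satin, 11.06 and 10.72. BL6 was lowest for Sdhb, while for Sdha the strains overlapped.

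Both membrane anchors of complex II separated BL6 from the others. Sdhc was at 9.02 and 9.31 in BL6, against 9.50 and 9.68 in Beige and, in Satin, 9.78 and 9.83. Sdhd was at 10.41 and 10.25 in BL6, against 10.60 and 10.91 in Beige and, in Satin, 10.93 and 10.86. For Sdhc the 3 strains followed each other without overlap, and for Sdhd Beige and Satin overlapped. Satin exceeded BL6 by 0.64 ± 0.17 for Sdhc (adjusted p = 0.16) and by 0.57 ± 0.17 for Sdhd (adjusted p = 0.20). A second Sdhc probe set, of the kind that can match other transcripts, gave -0.35 in Satin against both controls, where the one used gave 0.43. That second set gave 0.02 in Beige against BL6 and -0.34 in Satin against BL6. A second probe set of Sdhd gave 0.48 and 0.47 in the same comparisons.

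Complex III, the cytochrome bc1 complex, had a median of 0.61 in Satin against BL6, with 8 of 9 genes above 0, and of 0.38 against both controls, also with 8 of 9. In Beige against BL6, 9 of 9 genes were above 0 with a median of 0.32. Cyc1, the cytochrome that passes electrons to cytochrome c, was at 10.88 and 10.97 in BL6, against 11.17 and 11.23 in Beige and, in Satin, 11.63 and 11.45. The strains did not overlap, with Satin highest. The difference of Satin was 0.48 ± 0.13 from both controls (adjusted p = 0.14) and 0.61 ± 0.15 from BL6 (adjusted p = 0.13).

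Uqcrfs1, the Rieske iron-sulphur protein, followed the same order of means, at 10.34 and 10.48 in BL6, against 10.85 and 10.79 in Beige and, in Satin, 11.22 and 10.85. Uqcrc1, a core protein, was at 9.59 and 10.35 in BL6, against 10.32 and 10.06 in Beige and, in Satin, 10.96 and 10.42. Its replicates differed by more than 0.5 in BL6 and in Satin, and only the Satin arrays stood above all others. Uqcrc2, the partner core protein, did not share this: it was at 10.60 and 10.14 in BL6, against 10.24 and 10.54 in Beige and, in Satin, 10.34 and 9.83, with overlapping strains. A further Uqcrc2 probe set of like brightness was at 9.91 and 10.20 in BL6, against 10.41 and 10.56 in Beige and, in Satin, 10.27 and 10.32. On that probe set both BL6 arrays were lowest. Uqcrb, a small subunit at the ubiquinone side, was at 12.76 and 12.45 in BL6, against 12.57 and 12.88 in Beige and, in Satin, 12.63 and 12.82. For Uqcrq, also a small subunit, Satin exceeded both controls by 0.38 ± 0.20 in the probe set used and gave -0.25 in another. The median of the complex against both controls, relative to all genes, was 0.385, and without BL6 replicate 1 it was 0.234. With the Gapdh covariate it was 0.109, below the 0.133 of complex I under the same covariate.

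Complex IV, cytochrome c oxidase, showed the gap between BL6 and Beige but little beyond it. Of its 9 subunit genes tested, 8 were above 0 in Beige against BL6 (median 0.28), 7 in Satin against BL6 (median 0.25) and 4 in Satin against Beige (median -0.01). Cox8a, the common isoform of subunit VIII, was at 10.22 and 10.80 in BL6, against 11.21 and 11.06 in Beige and, in Satin, 11.35 and 11.15. Ndufa4, named for complex I but now assigned to complex IV, was at 10.21 and 10.65 in BL6, against 11.16 and 11.01 in Beige and, in Satin, 11.13 and 10.96. In both genes BL6 was lowest and the other strains overlapped. The differences of Beige from BL6 were 0.62 ± 0.20 for Cox8a and 0.66 ± 0.18 for Ndufa4, each with an adjusted p of 0.86.

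The other common isoforms of complex IV varied. Cox4i1 was at 11.45 and 11.62 in BL6, against 11.98 and 11.65 in Beige and, in Satin, 12.08 and 11.78. Cox7a2 was at 12.77 and 12.47 in BL6, against 13.06 and 12.85 in Beige and, in Satin, 12.90 and 12.85. BL6 was lowest on both arrays in these genes, by a narrow margin for Cox4i1. Cox6b1 overlapped between strains, at 12.40 and 11.93 in BL6, against 12.23 and 12.22 in Beige and, in Satin, 12.38 and 12.12. Cox6a1 was at 12.55 and 12.30 in BL6, against 12.51 and 12.38 in Beige and, in Satin, 12.37 and 12.09, and its 2 probe sets gave -0.21 and 0.24 in Satin against both controls.

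The tissue isoforms of complex IV were mostly dim and varied among themselves. Over the 4 tested, the median difference was 0.02 in Beige against BL6 and -0.02 in Satin against BL6, with 2 of 4 above 0 in each. Cox4i2, the isoform found mainly in lung and smooth muscle, was at 6.67 and 6.75 in BL6, against 6.24 and 5.94 in Beige and, in Satin, 6.18 and 6.09. Both BL6 arrays were above the other 4, with a difference of -0.61 ± 0.28 for Beige against BL6 (adjusted p = 0.86). Cox7a1, an isoform of heart and skeletal muscle, was at 7.18 and 7.70 in BL6, against 8.08 and 7.17 in Beige and, in Satin, 7.87 and 7.55. Cox6a2, also of muscle, stayed between 6.02 and 6.44. Of the 9 striated muscle markers, 2 passed the filter on dim genes, and their mean over all 9 lay between 5.47 and 5.85. The muscle isoform Cox8b and the testis isoform Cox6b2 were below the filter, as was Cox7c, a common subunit, whose brighter probe set of 2 was at 5.08 to 6.07.

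**Figure D4:**
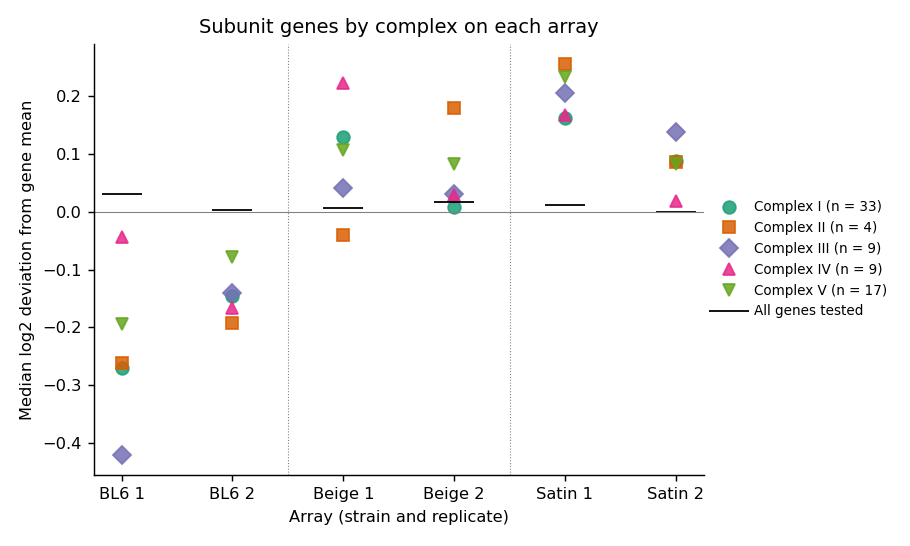
Median log2 deviation of the subunit genes of each complex from their means over the 6 arrays, by array (symbols; n is the number of genes), with the median of all 9395 genes tested as a black line. All 5 complexes lie below the line on both BL6 arrays, complex III lowest on replicate 1 at -0.42, and all lie above it on both Satin arrays.

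Complex V, the ATP synthase, had 15 of 17 genes above 0 in Beige against BL6 (median 0.32) and 16 of 17 in Satin against BL6 (median 0.29). Atp5a1 encodes the alpha subunit of the catalytic head and was at 11.24 and 11.47 in BL6, against 11.66 and 11.89 in Beige and, in Satin, 12.26 and 12.22. The strains followed each other without overlap, Satin highest. Satin exceeded BL6 by 0.88 ± 0.16, or 1.84-fold (adjusted p = 0.0502), and both controls by 0.67 ± 0.14, or 1.59-fold (adjusted p = 0.0558). Without BL6 replicate 2 these differences were 0.95 and 0.70, with BL6 then given by replicate 1 alone, the array with low 5′ to 3′ ratios. Other probe sets of Atp5a1 gave 0.12 and -0.11 against both controls, and 0.02 and -0.12 against BL6. On both of them the strains overlapped, so the size and the sign of the difference depend on the one chosen. Atp5b, the beta subunit that makes ATP, was at 11.16 and 11.24 in BL6, against 11.47 and 11.63 in Beige and, in Satin, 11.84 and 11.62. Satin exceeded BL6 by 0.53 ± 0.16 (adjusted p = 0.21).

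The membrane ring of complex V is built from subunit c, for which 3 genes encode the same mature protein. Atp5g1 was at 9.12 and 9.89 in BL6, against 10.47 and 9.995 in Beige and, in Satin, 10.58 and 10.25. Atp5g2 was at 9.86 and 10.52 in BL6, against 10.64 and 10.68 in Beige and, in Satin, 10.74 and 10.60. Atp5g3 was at 12.12 and 12.27 in BL6, against 12.25 and 12.26 in Beige and, in Satin, 12.57 and 12.39. BL6 was lowest on both arrays for Atp5g1 and Atp5g2, with BL6 replicate 1 far below replicate 2, and overlapped with Beige for Atp5g3. The differences of Satin from BL6 were 0.92 ± 0.27, 0.47 ± 0.21 and 0.29 ± 0.16 (adjusted p = 0.20, 0.40 and 0.51). Without BL6 replicate 2, which leaves replicate 1 alone for BL6, those of Atp5g1 and Atp5g2 were 1.29 and 0.80. Of these genes Atp5g1, whose stretch shown above lacks the NRF1 letters, had a larger difference than Atp5g2, whose stretch holds them; the difference between the genes was not tested.

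Among the smaller subunits of complex V, Atp5mpl was at 10.43 and 10.05 in BL6, against 10.91 and 10.94 in Beige and, in Satin, 10.63 and 10.73. Its difference between Beige and BL6 was 0.68 ± 0.17 (adjusted p = 0.86), with Satin between them. Atp5k, subunit e, was the lowest of the complex in Satin against both controls, at -0.19 ± 0.13. Its levels were 11.51 and 11.41 in BL6, against 11.54 and 11.44 in Beige and, in Satin, 11.31 and 11.25, both Satin arrays below the other 4. Further probe sets of Atp5k gave 0.02 and -0.32 against both controls. On the former, nearly as bright as the one used, the strains overlapped. On the latter both Satin arrays were again lowest. The latter and the one used are of the kind that can match other transcripts. With values as deposited, the differences of Atp5k, Cox6a1 and Uqcrc2 from both controls became positive, while the median of all genes moved to 0.43 in that comparison.

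Of the 6 genes that match the names without encoding a subunit, 5 encode assembly factors of complex I. Ndufaf1 was at 6.64 and 6.86 in BL6, against 7.75 and 7.29 in Beige and, in Satin, 7.09 and 7.26, with the largest difference between Beige and BL6 of all members, 0.77 ± 0.24 (adjusted p = 0.86). Ndufaf3 was at 7.06 and 7.36 in BL6, against 7.71 and 7.49 in Beige and, in Satin, 7.67 and 7.70. In these 2 genes BL6 was lowest. Ndufaf4 was at 8.59 and 7.52 in the BL6 replicates, which enclosed the other 4 arrays. Ndufaf5 and Ndufaf7 overlapped between strains, between 6.64 and 7.09. Cox7a2l, which helps to join complexes into supercomplexes, was at 9.47 and 9.66 in BL6, against 9.80 and 9.59 in Beige and, in Satin, 9.75 and 9.97.

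How far the members moved together was described by the correlation of each with the mean of the others over the 6 arrays. It was above 0 for 70 of 82 and above 0.5 for 55, with a median of 0.73. Of the 9313 other genes tested, 47.4% correlated above 0 and 20.1% above 0.5 with the mean of the members, with a median of -0.04. All points share the same 6 arrays. Among the members it was lowest for Cox4i2, at -0.82. Outside the group, the 10 genes most like the mean of the members were Micos13 (r = 0.995), Mycbp (0.993), Alox15 (0.989), Ncbp3 (0.988), Ctnnbl1 (0.985), Kdm7a (0.980), Mettl9 (0.979), Ptgfr (0.979), Trappc2l (0.978) and Bves (0.977), over the same 6 arrays. Of these, 6 had a mean level below 7.

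Probe sets of the same gene agreed only in part. In the 42 members with several probe sets past the filter, 62 further probe sets could be set beside the one used, and 40 of them had the same sign in Satin against both controls, 40 in Beige against BL6 and 42 in Satin against BL6. Within a gene, the gap between its highest and lowest probe set in Satin against both controls had a median of 0.25. The widest gap, for Ndufa12, was 0.94. The medians kept their sign: further probe sets gave 0.19 and those used 0.23 in Beige against BL6, and 0.20 and 0.28 in Satin against BL6.

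**Figure D5:**
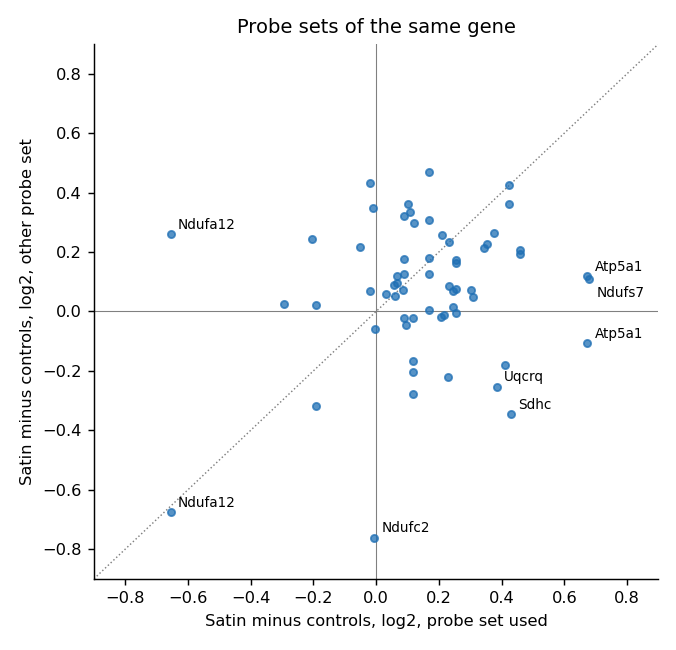
Difference of Satin from both controls, in log2, for each of 62 further probe sets (vertical axis) against the probe set used for the same gene (horizontal axis), over 42 members; the dotted line marks equal values. Most points lie within 0.5 of 0 on both axes, and the genes named in the plot include the 5 with the widest gaps (Ndufa12, Atp5a1, Sdhc, Ndufc2 and Uqcrq).

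Neighbouring mitochondrial pathways were described from lists of their genes. The mitochondrial ribosome, which translates the subunits encoded in the organelle, had 58 of 75 genes above 0 in Beige against BL6 (median 0.20) and 58 of 75 in Satin against BL6 (median 0.21), and 0 called in any comparison. The median was 0.23 in Beige against BL6 for 36 assembly factors (27 above 0; 5 of them are members described above, and without those it was 0.21 with 23 of 31 above 0), 0.17 for 25 genes of protein import (17 above 0), 0.13 for 13 carriers and outer membrane proteins (8), 0.12 for 17 genes of fatty acid oxidation (13) and 0.11 for 17 genes of the citric acid cycle (14). Glycolysis, which runs outside mitochondria, had a median of -0.00 with 7 of 14 above 0 in Beige against BL6. In Satin against BL6 its median was 0.18 with 11 of 14 above 0, beside 0.13 for fatty acid oxidation (11 of 17) and 0.10 for the carriers (8 of 13). In Satin against Beige it was 0.25 with 13 of 14 above 0. None of these lists had a call in Beige against BL6.

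Among all those lists 2 genes were called, both higher in Satin. Hccs, the assembly factor that attaches heme to cytochrome c and to the product of Cyc1, was at 8.28 and 7.86 in BL6, against 7.82 and 7.83 in Beige and, in Satin, 8.97 and 8.85. Satin exceeded both controls by 0.96 ± 0.17 (adjusted p = 0.0282). Pgam1, a glycolytic mutase, was at 9.24 and 9.61 in BL6, against 9.41 and 9.38 in Beige and, in Satin, 10.54 and 10.26, a difference of 0.98 ± 0.16 (adjusted p = 0.0179). Both genes were also called in Satin against Beige (adjusted p = 0.0412 and 0.0424), and for both the Satin arrays stood apart from all 4 controls. Coa3, a complex IV assembly factor, came next of the assembly factors at 0.87 ± 0.19 (adjusted p = 0.0643).

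Known regulators of mitochondrial genes were described in the same way. Of 25 such genes tested, 10 were above 0 in Beige against BL6, with a median of -0.02, and 16 in Satin against BL6, with a median of 0.11. In any comparison 0 were called. Nrf1 averaged 6.36 in BL6, 6.64 in Beige and 6.38 in Satin, and Gabpa 7.06, 6.62 and 7.19. The coactivator Ppargc1a averaged 6.72, 6.58 and 6.56, its relative Ppargc1b 8.74, 8.38 and 8.61, and the receptor Esrra 8.06, 7.91 and 8.18. Tfam, which packages mitochondrial DNA, averaged 7.53, 7.69 and 7.69. None of these regulators was lower in BL6 than in both other strains except Nrf1 and Tfam, whose adjusted p was above 0.05 in every comparison.

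Markers of cell types rich or poor in mitochondria moved too, and their part in the shift of the members was not tested. The mean over 8 parietal cell markers was 7.97 and 8.47 in BL6, against 8.35 and 8.35 in Beige and, in Satin, 9.06 and 8.58. It was lowest on BL6 replicate 1 and highest on Satin replicate 1, as was the mean of the members, but BL6 replicate 2 lay above both Beige arrays. Of these markers, Atp4a and Atp4b, the subunits of the acid pump, were high on all arrays, between 11.11 and 13.06, and Slc26a7 and Hdc were below the filter. The 6 tested were all above 0 in Satin against both controls (0 called). Against BL6 their median was 0.21 in Beige, with 4 of 6 above 0, and 0.81 in Satin, with 6 of 6. The mean over 10 smooth muscle markers was 9.77 and 9.29 in BL6, against 9.69 and 9.81 in Beige and, in Satin, 8.75 and 8.92, with 4 called lower in Satin. The mean over 4 adipocyte markers was 6.27 and 8.06 in BL6, against 8.01 and 7.91 in Beige and, in Satin, 7.12 and 8.02. Against BL6 the smooth muscle median was 0.27 in Beige, with 8 of 10 above 0, and -0.73 in Satin, with 0 of 10. The adipocyte median was 0.51 in Beige, with 4 of 4 above 0, and 0.43 in Satin, with 3 of 4. None of the parietal, smooth muscle and adipocyte lists set both BL6 arrays apart from the other 4. The gland mucous markers did: the mean over the 4 on the arrays was 9.86 and 9.70 in BL6, against 10.12 and 9.99 in Beige and, in Satin, 11.30 and 10.88. All 4 were above 0 in both comparisons with BL6, with medians of 0.20 for Beige and 0.23 for Satin, and 1 (Bpifb1) was called higher in Satin.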

How the data were processed

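The authors deposited linear intensity values, 1 signal per probe set and array, for 6 Affymetrix arrays of antral total RNA. The sources used here give neither the algorithm that made the signals nor any scaling. Of the sample columns, 0 were left unused. The 64 control probe sets of 22690 were left out, and signals were turned into log2(signal + 32) and quantile normalised. Gene symbols came from the platform annotation, and 8 probe sets naming a member and another gene were not used. Genes with means in the lowest 30% were left out, leaving 9395. Strains were compared with limma 3.58.1 in R 4.3.3 (lmFit, eBayes with intensity trend, two-sided, strain as the only factor, 3 residual degrees of freedom and 9.24 after moderation), adjusted by Benjamini-Hochberg over all genes tested. Errors of differences are SEs, and 2 arrays per strain limit the precision. The fit was tested on simulated data. Of the 22690 deposited values, 35 to 88 were exactly equal in each of the 15 pairs of arrays.

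Members, gene lists, tests and alternatives were chosen with earlier results of these data known. Genes named are, per complex, the 3 with the smallest p and the lowest in Satin against both controls and the brightest, the isoform genes, Sdha to Sdhd and Cyc1, the 5 with the widest gap between probe sets, the 3 with the smallest p in Beige against BL6 and in Satin against Beige, those below the filter, and those that are not subunits. Alternatives changed the pseudocount, normalisation, filter, probe set rule, eBayes options, samples in the fit, covariates and arrays left out.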

Additional observations from a re-analysis of the deposited data

How the results depend on the processing

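The counts of calls moved most with the scaling. With values as deposited, 39 members were called in Satin against both controls (16.2% of all genes) and 59 in Satin against BL6 (19.9%). With scaling to the hybridisation controls 61 (26.5%), 72 (36.3%) and, in Beige against BL6, 8 (0.373%) were called, all higher. The median of all genes then stood at 0.43 and 0.51 as deposited and at 0.50, 0.65 and 0.32 with the hybridisation controls, so the members are reported relative to it. Relative to all genes the median member difference in Beige against BL6 was 0.29, and 0.372 with median centring or as deposited and 0.419 with the hybridisation controls. In Satin against BL6 it was 0.320, and 0.426 with the hybridisation controls and 0.222 with the Gapdh covariate. Members with both BL6 arrays lowest numbered 62 as deposited (26.7% of all genes), 76 with the hybridisation controls (39.6%), 41 with median centring (10.4%) and 31 with the mean of probe sets (8.28%). With the hybridisation controls Atp5k in Satin against BL6 and Ndufc2 in Satin against both controls turned to 0.56 and 0.53 and were called.

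The robust option and a filter at the median each called 2 members in Satin against both controls (Atp5a1 and Ndufa12) and 1 in Satin against BL6 (Atp5a1). Of all genes they called 2.43% and 1.87% in the former and 1.30% and 1.06% in the latter. A pseudocount of 100 also called Atp5a1 in Satin against BL6, beside 0.884% of all genes. A fit of only Satin and Beige called 1 (Ndufa12), beside 1.46% of all genes. Leaving out each array in turn gave 0 to 4 members called in Satin against both controls, 0 to 1 against Beige, 0 to 10 against BL6 and 0 to 0 in Beige against BL6, with medians relative to all genes of 0.114 to 0.253, -0.0201 to 0.103, 0.262 to 0.381 and 0.225 to 0.358. The highest counts in Satin against both controls and in Satin against BL6 came without BL6 replicate 2. That fit leaves BL6 replicate 1 alone for BL6, the array with low 5′ to 3′ ratios. The calls over all genes, given below, were also highest there. Leaving out any other array gave 0 members called in both comparisons. The cause of these changes was not tested.

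Of all genes, 135 were called in Satin against both controls (30.4% of them higher). Median centring gave 92 (50% higher), as deposited 1519 (95.9%), the hybridisation controls 2488 (97.7%), no trend 36, the robust option 228, the Gapdh covariate 60, and arrays left out 29 to 294. In Satin against Beige the 84 calls (25% higher) became 52 with median centring (38.5%), 191 as deposited (79.1%), 182 with the hybridisation controls (79.7%), 49 with no filter, 37 with the mean of probe sets, 18 with no trend, 126 with the robust option, 136 with only these strains, and 9 to 139 with an array left out. In Satin against BL6 the 70 calls (30% higher) became 46 with a pseudocount of 1, 45 with median centring (53.3%), 1868 as deposited (97.8%), 3407 with the hybridisation controls (98.9%), 33 with no filter, 22 with the mean of probe sets, 12 with no trend, 122 with the robust option, 21 with only these strains, 29 with the Gapdh covariate, and 22 to 225 with an array left out. In Beige against BL6 the 0 calls became 3 as deposited, 35 with the hybridisation controls, 6 with the Gapdh covariate and 0 to 8 with an array left out.

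Replicate numbers are not said to pair arrays. Deviations of same-numbered arrays correlated at 0.118, 0.272 and 0.189, with 2 numbers only. With the replicate number as a block, 0 members were called in each comparison, all-gene calls were 123, 66, 48 and 0, and medians were the same.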
